A study of Mus musculus with 8 samples.

Results

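The 9 genes described here encode core subunits of the Polycomb repressive complexes and were picked by a rule on their names out of 35963 gene symbols in the table. Bmi1, Rnf2, Cbx2, Cbx7 and Cbx8 belong to Polycomb repressive complex 1 (PRC1), and Ezh1, Ezh2, Eed and Suz12 belong to PRC2. Epithelial cells of the proximal colon were freed with CEC buffer from mice aged 4 weeks, and total RNA sequencing gave 4 libraries with the label Ccna2-KO (Ccna2 fl/fl vil-Cre mice) and 4 with the label WT. The WT mice carried the same Ccna2 fl/fl alleles without Cre, although their genotype label reads wild type, so both groups share the floxed alleles and only the Ccna2-KO group carries Cre. The villin promoter drives this Cre in the epithelium of the small intestine and the colon, and other cells that a preparation holds keep Ccna2. The question addressed was how loss of cyclin A2, a cyclin of DNA replication and mitosis, changes gene expression in this epithelium, and here how each Polycomb gene stood in it.

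Polycomb complexes keep developmental genes silent. PRC2 methylates a lysine of histone H3 through its catalytic subunit Ezh2, which is typical of dividing cells, or Ezh1, which is also made in resting cells. PRC1 ubiquitinates histone H2A through Rnf2 or Ring1, each paired with one Pcgf protein such as Bmi1, and its Cbx subunits read the methyl mark that PRC2 writes. In the intestine Bmi1 is known as a gene of self-renewing epithelial cells and as a repressor of the Cdkn2a locus, and Ezh2 is highest in the dividing crypt cells.

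The promoters of Bmi1, Ezh1 and Ezh2 are shown because Bmi1 and Ezh1 differed between the groups in opposite directions, and Ezh2 is the paralog of Ezh1. RefSeq promoter windows of build GRCm38.p6 were found for 8 of the 9 genes, and not for Cbx2. A window runs from 250 bases before to 50 bases after an annotated start, 5′ to 3′ on the strand of the gene. Motif positions are counted from this start. For Ezh2 and Cbx7 the gene span given below reaches upstream of it, to 47595270 and 79971143. The Ezh2 window thus lies largely within the gene span, and the Cbx7 window (79932597 to 79932896) wholly within it. Capitals mark matches, on either strand, to 3 motifs of cell cycle genes: an E2F-type motif (TTTGGCGC, TTTCCCGC, TTTGCCGC or TTTCGCGC), the CHR motif (TTTGAA) and the CCAAT box (CCAAT, which reads ATTGG on the other strand). These motifs do not overlap each other in the windows shown.
Bmi1, chr2:18676768-18677067, plus strand: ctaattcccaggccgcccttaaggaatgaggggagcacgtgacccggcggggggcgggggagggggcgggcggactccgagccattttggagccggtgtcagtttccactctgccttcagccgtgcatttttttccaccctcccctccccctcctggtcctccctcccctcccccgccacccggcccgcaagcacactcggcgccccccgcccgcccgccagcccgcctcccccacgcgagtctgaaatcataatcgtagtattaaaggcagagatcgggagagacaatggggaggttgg
Ezh1, chr11:101226414-101226713, minus strand: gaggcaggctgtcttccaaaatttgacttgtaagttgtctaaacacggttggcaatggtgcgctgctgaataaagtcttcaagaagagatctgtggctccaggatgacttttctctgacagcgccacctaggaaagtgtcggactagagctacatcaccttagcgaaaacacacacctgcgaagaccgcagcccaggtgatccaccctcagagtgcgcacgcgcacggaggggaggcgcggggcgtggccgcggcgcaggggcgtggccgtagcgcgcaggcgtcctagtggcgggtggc
Ezh2, chr6:47594981-47595280, minus strand: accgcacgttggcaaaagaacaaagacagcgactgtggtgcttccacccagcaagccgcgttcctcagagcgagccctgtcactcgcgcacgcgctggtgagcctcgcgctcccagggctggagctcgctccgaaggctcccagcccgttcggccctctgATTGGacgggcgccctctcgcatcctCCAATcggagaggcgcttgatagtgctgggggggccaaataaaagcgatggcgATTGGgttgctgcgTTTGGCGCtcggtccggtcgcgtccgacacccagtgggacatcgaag
The Ezh2 window held the E2F-type motif TTTGGCGC starting 3 bases after the start site, and CCAAT boxes at -90, -64 and -11. No match to any of the motifs was found in the Bmi1, Ezh1 or Rnf2 window. Suz12 held the E2F-type motif TTTCCCGC at -219, a CHR motif at -203 and a CCAAT box at -61. Among the 8 windows, 2 held an E2F-type motif, 3 a CHR motif (Cbx7, Eed and Suz12) and 5 a CCAAT box (Cbx7, Cbx8, Ezh2, Eed and Suz12). Of all 32851 RefSeq windows of this length, 2.26% held an E2F-type motif, 17.9% a CHR motif and 37.4% a CCAAT box. Counted by gene, the shares were 2.60%, 20.2% and 41.1%. The 8 windows held 54.7% to 72.7% G and C, against a median of 52.7% over all windows. The motif counts were not adjusted for this and were not tested. A match describes these letters, not a bound site.

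Gene totals were 25960180 to 33028486 estimated counts per library, and values below are CPM, counts scaled to library size. The targeted gene did not separate the groups. Ccna2 had 18.2, 26.6, 26.6 and 16.2 CPM in the libraries labelled Ccna2-KO 1 to 4, against 54.3, 25.9, 11.9 and 18.3 CPM in those labelled WT 1 to 4. Its log2 fold change was -0.33 ± 0.41 (SE; adjusted p = 0.673 by edgeR's quasi-likelihood test), and it turned to 0.24 without WT 1. With the number set described below as a term it was -0.71 ± 0.30 (adjusted p = 0.133), and within number sets the log2 differences were -1.21 (621 to 641) and -0.13 (595 to 598). An exact two-sided permutation test gave p = 0.83, where 0.0286 is the smallest p that 4 libraries against 4 allow. Counts were summed over whole transcripts, so a deletion of some exons need not lower them, and the direction of every comparison below rests on the labels. Epithelial markers, summed over 7 genes, lay at 16360 to 22060 CPM in Ccna2-KO libraries and 16730 to 18760 CPM in WT libraries. A list of 18 genes of cycling cells summed to 880.2 to 1349 CPM in Ccna2-KO libraries, and to 943.6 CPM in WT 1 but 402.0 to 436.3 CPM in the other WT libraries. All 9 T cell markers and all 5 general leukocyte markers tested were lower in Ccna2-KO libraries, as were 5.71% of all genes (adjusted p under 0.05). With the library number set (below) as a term 7 and 3 of these markers were lower, as were 8.90% of all genes. The T cell markers summed to 8.58 to 14.3 CPM in Ccna2-KO libraries and 19.6 to 65.1 CPM in WT libraries, and the leukocyte markers to 7.20 to 15.9 CPM in Ccna2-KO libraries and 23.2 to 90.4 CPM in WT libraries. None of these markers was at 0 in any library. Of the other lists, Cd68 rose among 6 macrophage genes, of which the other 5 had negative log2 fold changes. Des rose among 5 genes of fibroblasts and smooth muscle, all 5 with positive log2 fold changes. Pecam1 fell among 2 endothelial genes, and the other, Vwf, was at 0.23 on the log2 scale and did not pass. Cd68, Des and Pecam1 were named after their values were seen. Cd68 lost its call with the number set as a term (adjusted p = 0.0601). Of the fits that each left out a library, Des passed in all 8, and Cd68 and Pecam1 in 3 each. Sample descriptions carry numbers, here called library numbers, and what they mark is not stated. They were 621 to 641 for Ccna2-KO 1 to 3 and WT 1 and 595 to 598 for Ccna2-KO 4 and WT 2 to 4. Number sets were formed by a split at the widest gap, and they overlap unevenly with the groups. Each difference within a number set compares 3 libraries of a group with 1 library of the other, so it rests on that single library. In bulk RNA, fewer cells of a type and less RNA per cell cannot be told apart.

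All 9 Polycomb genes passed the filter on low counts. Bmi1 rose in Ccna2-KO libraries, Cbx8 and Ezh1 fell, and the other 6 did not pass the threshold of 0.05 on adjusted p. These 3 of 9 members (33.3%) compare with 1924 of 15893 genes (12.1%) over the whole table, of which 6.40% were higher and 5.71% lower in Ccna2-KO libraries. The ranges of the groups did not overlap for Bmi1, Cbx7 and Ezh1, against 19.0% of all genes. The median log2 fold change of the 9 members was -0.01, as it was over all genes tested.

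**Figure D1:**
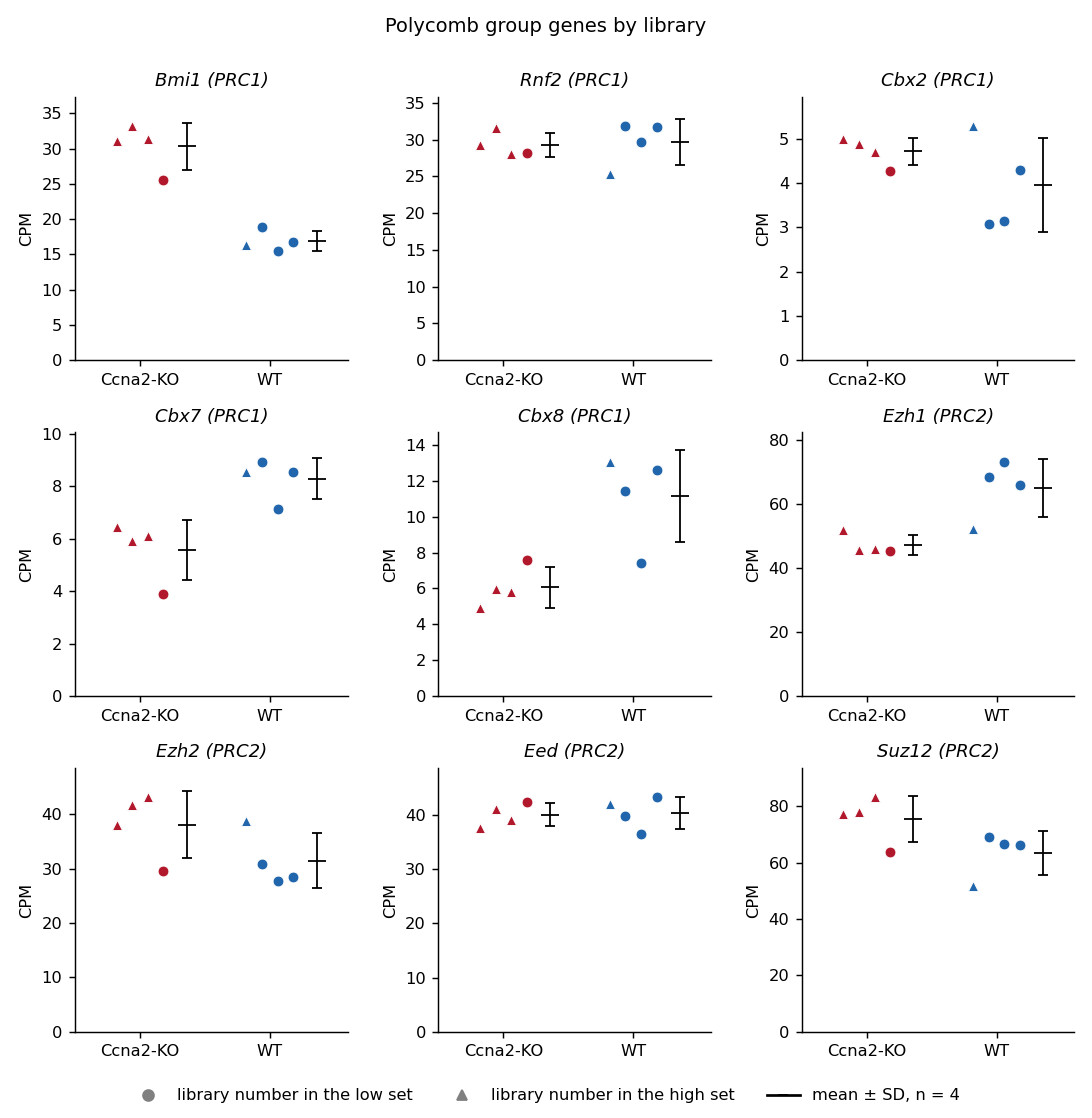
CPM of the 9 Polycomb genes in each library, Ccna2-KO left (red) and WT right (blue). Each point is a library, circles have library numbers 595 to 598 and triangles 621 to 641, and bars show mean ± SD (n = 4). Bmi1 lies at 25.6 to 33.3 CPM in Ccna2-KO libraries, above all WT libraries at 15.5 to 18.9 CPM.

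Bmi1, the Pcgf subunit that activates the ubiquitin ligase of canonical PRC1 (chromosome 2, 18677018 to 18686629, plus strand), had 31.0, 33.3, 31.4 and 25.6 CPM in Ccna2-KO libraries 1 to 4, against 16.3, 18.9, 15.5 and 16.8 CPM in WT libraries 1 to 4. Every Ccna2-KO library was above every WT library, and WT 1 lay among the other WT libraries. The means were 30.3 ± 3.29 CPM in Ccna2-KO libraries and 16.9 ± 1.44 CPM in WT libraries (SD, n = 4 each), a 1.80-fold rise (log2 fold change 0.85 ± 0.12; edgeR adjusted p = 0.00259). The call held when any single library was left out, with adjusted p between 0.00106 and 0.0124, in fits that called 6.05% to 28.5% of all genes. Within the set of library numbers 621 to 641 the log2 difference was 0.96, and within the set 595 to 598 it was 0.59. With the number set as a term in the fit it was 0.78 (adjusted p = 0.00361).

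Rnf2, the catalytic E3 ligase of PRC1 (chromosome 1, 151469398 to 151500991, minus strand), had 28.1 to 31.6 CPM in Ccna2-KO libraries and 25.3 to 31.9 CPM in WT libraries. The ranges overlapped, and the log2 fold change was -0.02 ± 0.11 (adjusted p = 0.939), with a sign that turned under several settings. The other PRC1 ligase gene, Ring1, did not pass either, with a log2 fold change of -0.16 ± 0.15 (adjusted p = 0.547).

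Among the 3 Cbx members, Cbx8 alone passed the threshold. Cbx8, a chromodomain reader of PRC1 (chromosome 11, 119036303 to 119040913, minus strand), had 4.89, 5.97, 5.77 and 7.61 CPM in Ccna2-KO libraries 1 to 4, against 13.1, 11.5, 7.44 and 12.6 CPM in WT libraries 1 to 4. One pair overlapped, with Ccna2-KO 4 just above WT 3. Cbx8 fell by 0.88 ± 0.21 on the log2 scale (adjusted p = 0.0274). Its call was lost without Ccna2-KO 1, 2 or 3 or without WT 2 or 4 (adjusted p 0.0657 to 0.0897), and the log2 differences within number sets were -1.23 (621 to 641) and -0.43 (595 to 598).

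Cbx7, the reader known for silencing Cdkn2a together with Bmi1 (chromosome 15, 79915804 to 79971143, minus strand), had 6.44, 5.91, 6.09 and 3.88 CPM in Ccna2-KO libraries 1 to 4, against 8.54, 8.94, 7.13 and 8.54 CPM in WT libraries 1 to 4. The groups did not overlap, yet the gene did not pass (log2 fold change -0.57 ± 0.18; adjusted p = 0.0781). It passed with the number set as a term (-0.76; adjusted p = 0.0192; 18.2% of all genes called in that fit) and by DESeq2 (adjusted p = 0.0207; 18.6% of all genes). Its gene overlaps Apobec3 on the other strand over 2415 bases, and since no source used here gives the strandedness, reads there cannot be told apart by strand.

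Cbx2, whose protein can compact chromatin (chromosome 11, 119023019 to 119031275, plus strand), had 4.99, 4.89, 4.71 and 4.27 CPM in Ccna2-KO libraries 1 to 4, against 5.30, 3.07, 3.14 and 4.30 CPM in WT libraries 1 to 4. WT 1 was the highest of all 8, and the log2 fold change was 0.25 ± 0.21 (adjusted p = 0.502). Cbx2 and Cbx8 are neighbours on chromosome 11, on opposite strands, with 5027 bases between them.

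Among PRC2 genes, Ezh1 was the one that passed. Ezh1, one of its alternative methyltransferases (chromosome 11, 101191115 to 101226463, minus strand), had 51.9, 45.5, 46.0 and 45.2 CPM in Ccna2-KO libraries 1 to 4, against 52.3, 68.4, 73.3 and 66.1 CPM in WT libraries 1 to 4. WT 1 was next to Ccna2-KO 1 and well below the other WT libraries. Ezh1 fell by 0.46 ± 0.12 on the log2 scale (adjusted p = 0.0324). The call was lost without any library except WT 1 (adjusted p 0.0575 to 0.0991), and without WT 1 the adjusted p was 0.00117. Within number sets the log2 differences were -0.13 (621 to 641) and -0.61 (595 to 598), and with the set as a term the gene did not pass (adjusted p = 0.0619).

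Ezh2, the other methyltransferase (chromosome 6, 47530274 to 47595270, minus strand), had 38.1, 41.8, 43.1 and 29.6 CPM in Ccna2-KO libraries 1 to 4, against 38.8, 30.8, 27.7 and 28.6 CPM in WT libraries 1 to 4. The groups overlapped, since WT 1 reached the level of Ccna2-KO 1 and Ccna2-KO 4 lay among WT 2 to 4. The log2 fold change was 0.28 ± 0.15 (adjusted p = 0.286), and it was 0.40 (adjusted p = 0.045) without WT 1, a fit that called 28.5% of all genes. Within number sets the log2 differences were 0.08 (621 to 641) and 0.03 (595 to 598), each resting on a single library of a group.

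Eed, the subunit that binds the methyl mark and stimulates the enzyme (chromosome 7, 89954654 to 89980976, minus strand), had 37.5 to 42.4 CPM in Ccna2-KO libraries and 36.4 to 43.2 CPM in WT libraries, with a log2 fold change of -0.01 ± 0.09 (adjusted p = 0.957) whose sign turned when single libraries were left out. Suz12, the scaffold of PRC2 (chromosome 11, 79993106 to 80034123, plus strand), had 77.5, 77.9, 83.2 and 63.8 CPM in Ccna2-KO libraries 1 to 4, against 51.7, 69.0, 66.8 and 66.4 CPM in WT libraries 1 to 4. Ccna2-KO 4 lay below WT 2 to 4, and the log2 fold change was 0.25 ± 0.12 (adjusted p = 0.234).

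The levels of the members were compared per length, as CPM per kb of the annotated transcript that matched the most abundant curated RefSeq one. In Ccna2-KO libraries Eed (19.4 ± 1.03) and Suz12 (17.3 ± 1.90) were highest, followed by Ezh2 (13.7 ± 2.19), Ezh1 (11.2 ± 0.759), Rnf2 (9.27 ± 0.514) and Bmi1 (8.44 ± 0.915; SD, n = 4 each). Cbx7 (1.92 ± 0.397), Cbx8 (1.69 ± 0.317) and Cbx2 (1.24 ± 0.0827) were lowest. In WT libraries Ezh1 (15.5 ± 2.14) was second to Eed (19.5 ± 1.45) and above Suz12 (14.5 ± 1.82) and Ezh2 (11.3 ± 1.81), and Bmi1 (4.70 ± 0.400) was below Rnf2 (9.39 ± 0.975) by more than their spread. Many neighbours in this order overlapped within their SD. In Ccna2-KO libraries these were Eed and Suz12, Suz12 and Ezh2, Ezh2 and Ezh1, Rnf2 and Bmi1, and Cbx7 and Cbx8. In WT libraries they were Ezh1 and Suz12, Suz12 and Ezh2, Ezh2 and Rnf2, and Cbx8 (3.11 ± 0.714) and Cbx7 (2.86 ± 0.273), with Cbx2 lowest (1.04 ± 0.278).

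The 5 PRC1 genes and the 4 PRC2 genes did not separate as complexes. With each gene centred on its mean log2 CPM over the 8 libraries, the PRC1 mean minus the PRC2 mean was -0.05, -0.01, -0.09 and -0.02 in Ccna2-KO libraries 1 to 4, against 0.19, 0.02, -0.18 and 0.12 in WT libraries 1 to 4. The Ccna2-KO libraries lay inside the range of the WT libraries, and the group means, -0.04 ± 0.04 in Ccna2-KO libraries and 0.04 ± 0.16 in WT libraries, differed by -0.08. Taken instead as the log2 ratio of summed CPM, which weights abundant genes, that difference was 0.12, so its sign depends on the weighting. Of the 9 members, those with the highest and the lowest log2 fold change, Bmi1 and Cbx8, both belong to PRC1. The medians of log2 fold changes were -0.02 for PRC1 and 0.12 for PRC2.

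Paralogs that replace each other in a complex were set side by side. Pcgf2, the Pcgf paralog closest to Bmi1, had 24.8, 23.9, 24.0 and 21.1 CPM in Ccna2-KO libraries 1 to 4, against 34.1, 29.8, 36.4 and 32.8 CPM in WT libraries 1 to 4. It fell by 0.50 ± 0.10 on the log2 scale (adjusted p = 0.0139 by edgeR's test), and the call held without any single library. With the replicate number as a term Pcgf2 did not pass (adjusted p = 0.0642), in a fit that called 6.21% of all genes. Per length, the ratio of Bmi1 to Pcgf2 was 0.816, 0.909, 0.853 and 0.791 in Ccna2-KO libraries 1 to 4, against 0.313, 0.414, 0.279 and 0.334 in WT libraries 1 to 4. Their sum was 18.4 ± 1.55 CPM per kb in Ccna2-KO libraries and 18.9 ± 0.780 CPM per kb in WT libraries. The ratio of Ezh2 to Ezh1 was 1.10, 1.38, 1.41 and 0.984 in Ccna2-KO libraries 1 to 4, against 1.12, 0.678, 0.568 and 0.651 in WT libraries 1 to 4. For this pair the groups overlapped through WT 1, and the sums were 24.9 ± 2.37 CPM per kb in Ccna2-KO libraries and 26.8 ± 0.699 CPM per kb in WT libraries. The ratios and sums were formed from genes already described and were not tested.

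**Figure D2:**
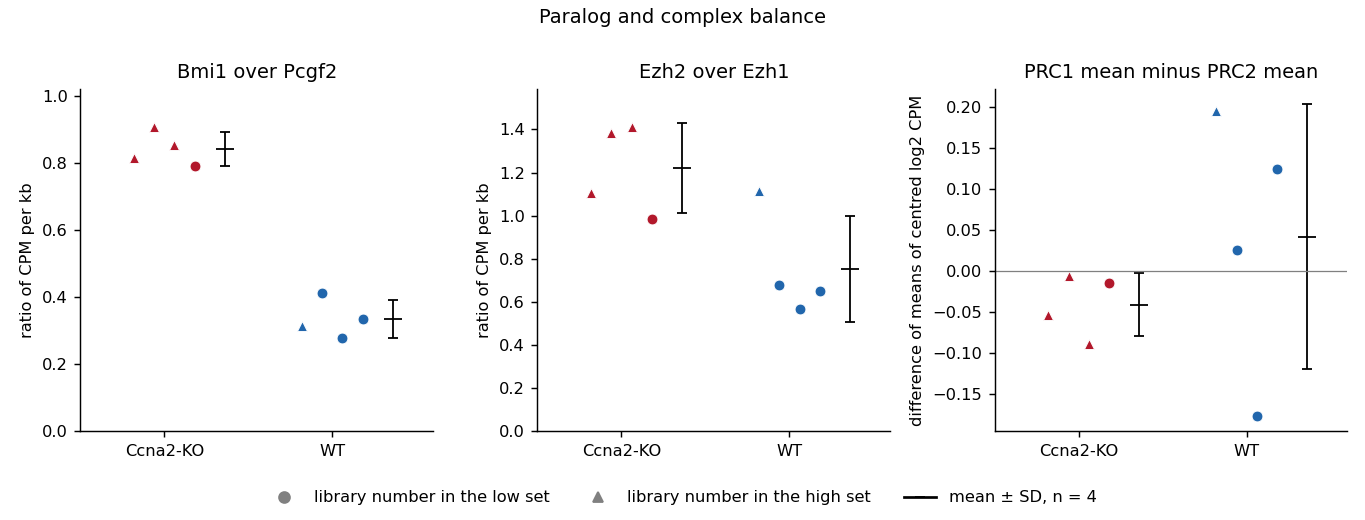
Ratios of CPM per kb for Bmi1 over Pcgf2 and Ezh2 over Ezh1, and the PRC1 mean minus the PRC2 mean of centred log2 CPM. Points are libraries (circles have numbers 595 to 598, triangles 621 to 641) and bars beside points show mean ± SD (n = 4). Bmi1 over Pcgf2 is 0.791 to 0.909 in Ccna2-KO libraries and 0.279 to 0.414 in WT libraries.

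Set beside the cycling genes, the members showed different arrangements. The mean centred log2 CPM of the 18 cycling genes was 0.49, 0.86, 0.82 and 0.12 in Ccna2-KO libraries 1 to 4, against 0.44, -0.86, -0.99 and -0.89 in WT libraries 1 to 4. Ezh2 was highest in Ccna2-KO 2 and 3, the libraries highest in cycling genes, and Ezh1 was highest in WT 2 to 4, the libraries lowest in them. Bmi1 had 16.3 CPM in WT 1 and 31.0 CPM in Ccna2-KO 1. The mean of the cycling genes was near in these libraries, but single cycling genes differed in both directions. Mki67 had 135.1 CPM in WT 1 and 241.1 CPM in Ccna2-KO 1, and Mcm6 had 68.54 CPM in WT 1 and 44.17 CPM in Ccna2-KO 1. Leukocyte markers were highest in WT 2 and 3 (90.4 and 75.7 summed CPM), where Ezh1 was also highest. The pan-leukocyte gene Ptprc fell by 2.63 ± 0.51 on the log2 scale (adjusted p = 0.0114), and by 1.74 with the number set as a term (adjusted p = 0.0493). Within number sets its log2 differences were -1.005 (621 to 641) and -2.45 (595 to 598). Mki67, a marker of dividing cells, rose by 1.55 ± 0.20 (adjusted p = 0.00182 by edgeR's test). It was 1 of 4 among the 18 cycling genes that passed (22.2%, against 12.1% of all genes). All 18 had positive log2 fold changes. The part of cell composition or of proliferation in any Polycomb result was not tested.

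**Figure D3:**
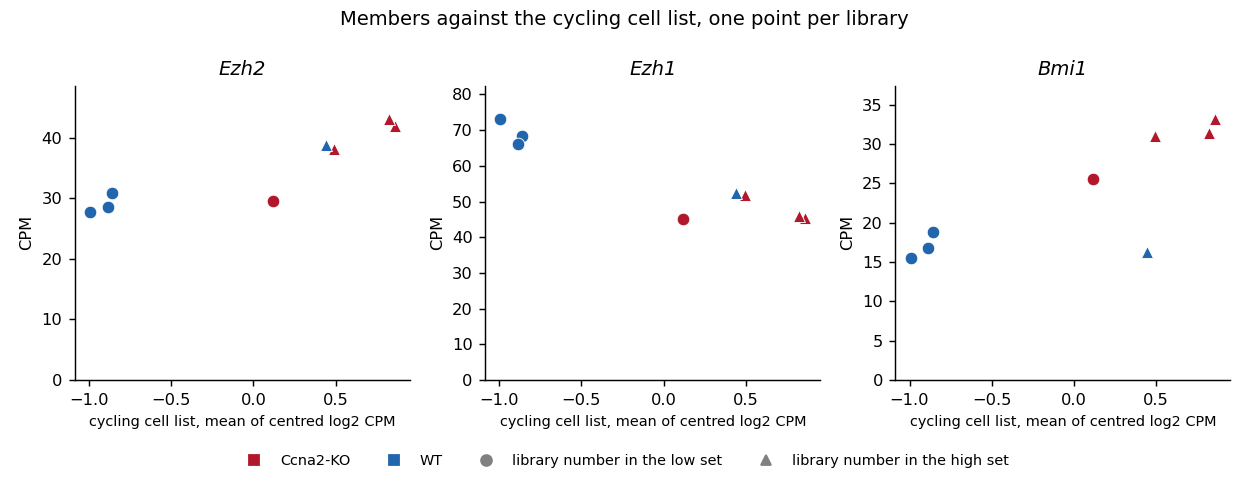
CPM of Ezh2, Ezh1 and Bmi1 (vertical axes) against the mean centred log2 CPM of 18 cycling genes (horizontal axes), a point for each library, Ccna2-KO red and WT blue, circles for library numbers 595 to 598 and triangles for 621 to 641. WT 1 lies beside Ccna2-KO 1 for Ezh2 and Ezh1 but at 16.3 CPM, with the other WT libraries, for Bmi1.

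The table splits each gene into RefSeq transcripts. For Bmi1, the curated transcript took 61.4% ± 11.2 of the estimated counts in Ccna2-KO libraries and 46.2% ± 15.7 in WT libraries (SD, n = 4 each), and the WT share ran from 29.4% in WT 1 to 67.2% in WT 2. In a fit over 38384 transcripts, 357 passed (0.930%), and the curated Bmi1 transcript did not (log2 fold change 1.23 ± 0.29; adjusted p = 0.111). The curated transcript of Ezh1, with 77.4% ± 8.6 of the counts in Ccna2-KO libraries and 85.1% ± 7.4 in WT libraries, was the one member transcript that passed (-0.58 ± 0.10; adjusted p = 0.0432). For Cbx8 the curated transcript took 63.5% ± 3.3 in Ccna2-KO libraries and 54.4% ± 8.5 in WT libraries, with the WT 1 share (67.0%) above the others. Shares of transcripts with common exons are estimates of the authors' quantification.

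Beyond the members, 36 further Polycomb genes and counteracting enzymes were listed and 35 were tested: 1 was higher, 4 were lower in Ccna2-KO libraries (14.3% called, near the 12.1% of all genes), and their median log2 fold change was -0.03. The 19 other PRC1 genes held 3 of the lower ones. Besides Pcgf2 these were Scml4, a Polycomb protein of the SCM family, which fell by 0.56 ± 0.13 on the log2 scale (adjusted p = 0.0218), and Bcorl1, a corepressor of variant PRC1, which fell by 0.77 ± 0.20 (adjusted p = 0.0333). The Scml4 call was lost without Ccna2-KO 1, 2 or 4 or WT 4, and the Bcorl1 call without any library except WT 1. With the number set as a term Bcorl1 was at -0.51 and did not pass (adjusted p = 0.0917). Cbx6, another reader, did not pass (adjusted p = 0.0659; -0.70 ± 0.22 on the log2 scale).

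Of 9 other PRC2 genes, 8 were tested, and the accessory subunits Phf1 and Epop changed in opposite directions. Phf1, which helps PRC2 onto chromatin, had 28.9, 23.2, 21.6 and 32.1 CPM in Ccna2-KO libraries 1 to 4, against 38.3, 71.6, 64.4 and 52.6 CPM in WT libraries 1 to 4. The groups did not overlap, and it fell by 1.10 ± 0.20 on the log2 scale (adjusted p = 0.00932). Epop, listed in the table as E130012A19Rik and known as a PRC2 partner that binds elongin, had 40.1, 37.8, 60.5 and 25.7 CPM in Ccna2-KO libraries 1 to 4, against 10.8, 21.8, 15.3 and 17.1 CPM in WT libraries 1 to 4. It rose by 1.34 ± 0.28 (adjusted p = 0.0148) with no overlap, and with the number set as a term it was about as large, 1.29 ± 0.38, but did not pass (adjusted p = 0.0529). Both calls held without any single library. Of the 8 counteracting enzymes, among them the demethylases Kdm6a and Kdm6b and the deubiquitinase Bap1, 0 passed in edgeR's test, 0 had an unadjusted p under 0.05 and 0 passed by DESeq2.

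**Figure D4:**
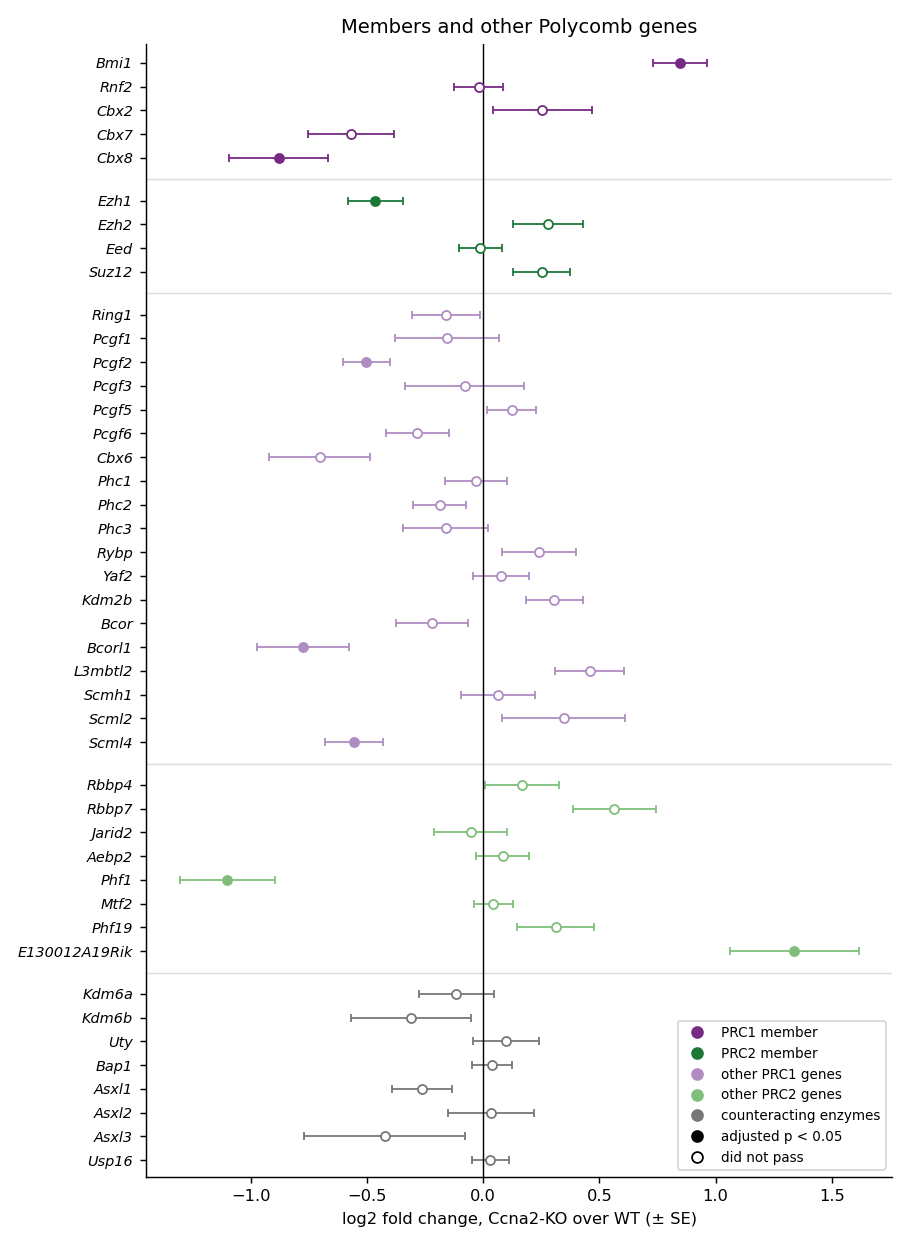
Log2 fold change, Ccna2-KO over WT, with SE bars for the 9 members and the 35 other Polycomb genes and counteracting enzymes tested. Filled points passed adjusted p under 0.05, open points did not. Bmi1 (0.85) and E130012A19Rik (1.34) are the filled points right of 0.

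Genes known for Polycomb repression were read as a separate list, of which 32 of 64 passed the filter on low counts, and 3 were higher and 3 lower in Ccna2-KO libraries (18.8%, against 12.1% of all genes; median log2 fold change 0.02). Of these calls, Cdkn2a, Hoxd3 and Hoxd8 met the filter only through the group in which they were high, so the share depends on the filter. Cdkn2a, the tumour suppressor locus that Bmi1, Cbx7 and Ezh2 are known to silence, had 31, 34, 74 and 35 estimated counts in Ccna2-KO libraries 1 to 4, against 0, 2, 2 and 0 in WT libraries 1 to 4. It rose (fitted log2 fold change 5.25 ± 0.64; adjusted p = 0.00159 by edgeR's test), in the same libraries in which Bmi1 rose. The fold depends on how the near-absent WT counts are handled. Cdkn2a met the filter on low counts through the Ccna2-KO libraries alone, so the filter favoured a rise. Its neighbour Cdkn2b, with 47.3 to 87.5 CPM in Ccna2-KO libraries and 59.7 to 62.9 CPM in WT libraries, did not pass (adjusted p = 0.831; log2 fold change 0.07 ± 0.16). The transcription factor genes Gata4 (2.18 ± 0.54; adjusted p = 0.0311) and Evx1 (1.71 ± 0.39; adjusted p = 0.0226) rose too by edgeR's test. For Gata4 the groups overlapped, with Ccna2-KO 2 at 1.829 CPM below WT 4 at 2.393 CPM. By limma voom Gata4 did not pass (adjusted p = 0.0634). Gata4 kept its call only without Ccna2-KO 2, WT 1 or WT 4, and Evx1 only without Ccna2-KO 4, WT 1 or WT 2, of the 8 fits that each left out a library.

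Hox genes, which set positional identity, gave the lower calls. Of 39 Hox genes listed, 24 were tested and 3 passed (12.5%, near the 12.1% of all genes). These 3 were Hoxd genes, and 6 further Hoxd genes were too low to test. Hoxd3 and Hoxd8 met the filter on low counts through the WT libraries, with 0 to 15 estimated counts in Ccna2-KO libraries. The filter thus favoured Hoxd genes high in WT libraries, and the 3 calls do not describe the whole cluster. Hoxd4 had 1.48, 1.20, 1.22 and 0.784 CPM in Ccna2-KO libraries 1 to 4, against 6.03, 10.4, 7.35 and 12.6 CPM in WT libraries 1 to 4, and fell by 2.95 ± 0.30 on the log2 scale (adjusted p = 0.000581). Hoxd3 fell by 2.94 ± 0.43 (adjusted p = 0.00329) and Hoxd8 by 3.02 ± 0.63 (adjusted p = 0.015), and both lay apart in the groups. The Hoxd8 call was lost without Ccna2-KO 2 (adjusted p = 0.0508). Of 11 Hoxa genes 10 had positive log2 fold changes and of 10 Hoxb genes 9 had negative ones, but none of either cluster passed in edgeR's test. At an unadjusted p under 0.05 there were 2 Hoxa and 7 Hoxb genes (18.2% and 70.0%, against 26.3% of all genes), and DESeq2 called 2 Hoxa genes and 1 Hoxb gene, where it called 18.6% of all genes. Without WT 1, 5 Hoxa genes were higher and 7 Hoxb genes lower, in a fit that called 28.5% of all genes (15.1% higher and 13.4% lower).

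**Figure D5:**
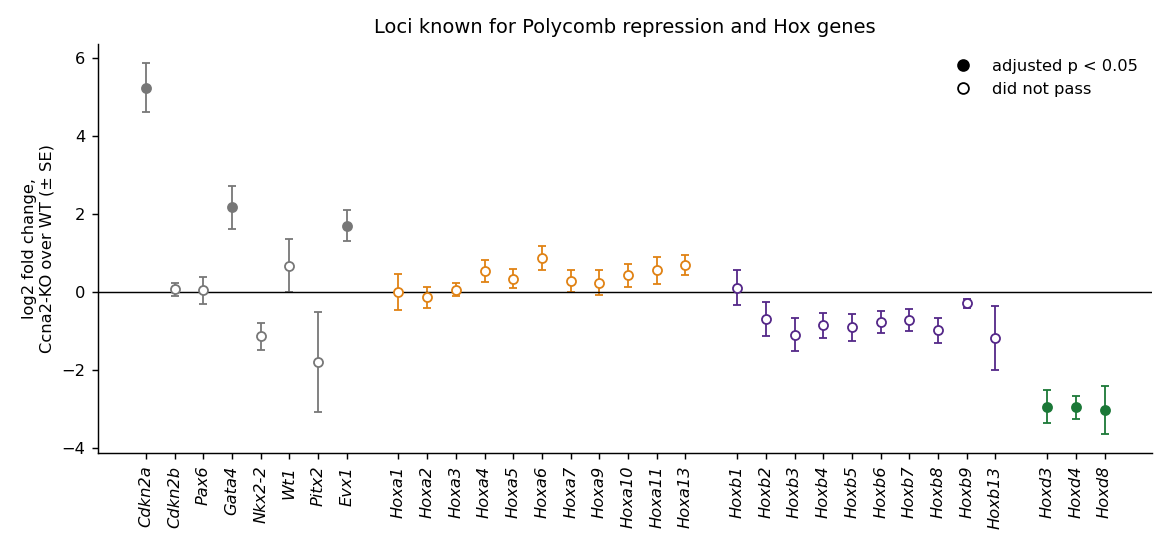
Log2 fold change, Ccna2-KO over WT, with SE bars for 8 loci known for Polycomb repression and 24 Hox genes, grouped by cluster. Filled points passed adjusted p under 0.05, open points did not. The 3 Hoxd genes tested lie near -3 and Cdkn2a at 5.25. Cdkn2a, Hoxd3 and Hoxd8 met the filter on low counts only through the group in which they were high.

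Across the 8 libraries, the genes with patterns most like those of the members that passed were found by Pearson correlation of log2 CPM over 11847 genes. Bmi1 was closest to Hspbap1 (r = 0.98) and Pask (r = 0.98), Cbx8 to Siah1a (r = 0.99) and Gm15417 (r = 0.97), and Ezh1 to Lpxn (r = 0.98) and Bcorl1 (r = 0.98). Libraries share the group difference and their cell composition in these values, and the nearest of so many genes will be close by selection.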

How the data were processed

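The deposited table holds estimated counts per RefSeq transcript in 8 libraries. Per the submitters' processing notes, the authors used kallisto and the mouse build GRCm38 (mm10), with no version given. Of 107193 transcripts, 687 without a gene symbol (3.19% to 5.51% of the counts) were left out. Counts were summed per symbol and rounded. Table totals were 27162083 to 34386731 per library, and no library repeated another. Nothing shows that libraries came from separate mice, so p-values may measure technical spread only.

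Genes were tested with edgeR 4.0.16 in R 4.3.3 (TMM scaling, default low-count filter, robust quasi-likelihood F test, genotype only), with Benjamini-Hochberg adjustment over 15893 genes and a threshold of 0.05. CPM was taken on TMM-scaled totals, and logs used a prior count of 2. The fit was tested on simulated data. Some Polycomb genes are not reported here. The members and lists were chosen with earlier results of these data known. The genes named are all members, Ccna2, Mki67, Ptprc, Cdkn2a and Cdkn2b, up to 10 called and 2 uncalled paralogous Polycomb genes and up to 8 called repressed loci. Alternatives were other scalings and filters, DESeq2 1.42.0, limma 3.58.1 voom, terms for number set or replicate, and leaving out each library.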

Additional observations from a re-analysis of the deposited data

Results flagged for a closer look

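In 6 of 52 groups of 4 libraries examined, 1 library stood far from the other 3 by Dixon's test, which chance flags in about 1 in 20 groups. Ezh1 in Ccna2-KO 1 was at 51.89 CPM, against 45.22 to 45.97 CPM in the other Ccna2-KO libraries, which puts it next to the lowest WT library. Suz12 in WT 1 was at 51.71 CPM, against 66.4 to 69.03 CPM in the other WT libraries. Cbx6 stood apart in both groups, at 2.028 CPM in Ccna2-KO 3 against 2.359 to 2.399 CPM in its group, and at 5.18 CPM in WT 4 against 3.112 to 3.38 CPM. WT 4 was also high for Gata4, at 2.393 CPM against 0.9225 to 1.117 CPM in the other WT libraries, and for Hoxd8, at 2.302 CPM against 1.185 to 1.277 CPM.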

How the results depend on the processing

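Of 491 values computed under alternatives, 405 kept their direction and side of the threshold (or a like count), 63 were weaker, 11 stronger and 12 turned sign. Over all genes, 1924 calls became 2949 by DESeq2, 2892 with the number set as a term and 972 to 4627 when a library was left out, the most without WT 1. The members called, 3 at first, ranged from 1 to 4 when a library was left out, the other Polycomb genes from 3 to 12 (5 with all libraries, 8 by DESeq2) and the repressed genes from 4 to 18 (6 with all libraries). Deviations of same-numbered libraries had correlations of -0.069, -0.352, -0.263 and 0.153. Differently numbered pairs ran from -0.432 to 0.417, so these values cannot show whether the replicate numbers mark pairs. A replicate block gave 987 genes, 1 member (Bmi1), 2 other Polycomb genes, 6 of 9 T cell and 1 of 5 leukocyte markers, and Ptprc lost its call (adjusted p = 0.0618). The Ccna2 fold change ran from -0.58 to 0.24 when a library was left out. Small fold changes turned sign: Rnf2 to 0.0435 with the number set as a term and to between -0.0862 and 0.0156 without single libraries, Eed to between -0.0595 and 0.0285, and Cdkn2b to between -0.1033 and 0.2015. The difference between PRC1 and PRC2 turned from -0.08 to 0.12 as log2 of summed CPM. The cause of these shifts was not tested. Depth limits Cdkn2a in WT libraries (0 to 2 estimated counts) and Hoxd3 and Hoxd8 in Ccna2-KO libraries (0 to 15).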
